A study of Mus musculus with 9 samples.

Results

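Cartilage matrix is laid down by chondrocytes around a network of collagen fibrils, and many of its other components are proteins that link, coat or regulate that network. In a healing fracture with some movement, cells of the periosteum form a cartilage callus that is later replaced by bone, so transcripts of chondrocyte products are found in callus at this stage. The 10 genes described here encode cartilage matrix or secreted proteins that are not collagens: Comp, Matn1, Matn3, Matn4, Hapln1, Cnmd, Snorc, Ucma, Scrg1 and Cytl1. They were chosen by name, and all 10 were found among the 22054 genes of the expression table.

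Callus was taken 7 days after fracture of the femur in male C57BL/6J mice, 7 weeks old per the labels. Each mouse carried a fixed midshaft fracture and received daily intraperitoneal injections of 200 μl for 7 days. One group was given the STING inhibitor H-151 (750 nmol), another the STING activator SR-717 (30 mg/kg), and the control group PBS in an equal volume. STING is the adaptor through which cytosolic DNA, sensed by cGAS, starts an inflammatory response, and the comparisons asked how inhibition or activation of it changed the callus transcriptome. Each group had 3 libraries, which the labels call separate biological samples without naming animals, so p-values measure the spread between these libraries only. No unfractured bone is part of the comparison, the drugs act on the whole animal, and the label of the extraction step speaks of cell lines although the tissue label is bone.

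Sequencing depth was 16987398 to 23272480 expected counts per library, and the 10 genes took 0.0109% to 0.227% of them. On the first principal component of all genes (46.7% of the variance), the first SR-717 library lay at 101 and the first PBS library at 38.6, while the other 7 libraries lay between -29.3 and -4.08. Group values are therefore given beside the values of single libraries. The samples are bulk tissue, in which fewer chondrocytes and less RNA per chondrocyte cannot be told apart. Col2a1, the main cartilage collagen, was present at 17.1 to 4317 TPM (transcripts scaled for gene length and for the library's total), and the bone collagen Col1a1 at 5941 to 13015 TPM.

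The order of the genes by mean TPM over the 9 libraries was led by Comp, cartilage oligomeric matrix protein, a thrombospondin that binds collagen fibrils (658 ± 403 TPM, SD, n = 9), which lay above the next gene in 9 of 9 libraries. Comp alone made up 51.9% to 71.1% of the summed TPM of the 10 genes in a library. Snorc (116 TPM), Cnmd (106 TPM) and Matn4 (91.0 TPM) followed, and these neighbours were not separated: Snorc lay above Cnmd in 5 of 9 libraries and Cnmd above Matn4 in 4 of 9. Matn4 lay above Hapln1 (40.7 TPM) in 9 of 9 libraries. Hapln1, Matn3 (32.4 TPM), Ucma (29.8 TPM) and Scrg1 (18.1 TPM) formed a middle range in which neighbours kept their order in 6 or 7 of 9 libraries. Matn1 (7.35 TPM) and Cytl1 (4.51 TPM) were lowest, Scrg1 lay above Matn1 in 9 of 9 libraries, and Matn1 lay above Cytl1 in 6 of 9. Ordering by the median gave the same order.

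**Figure D1:**
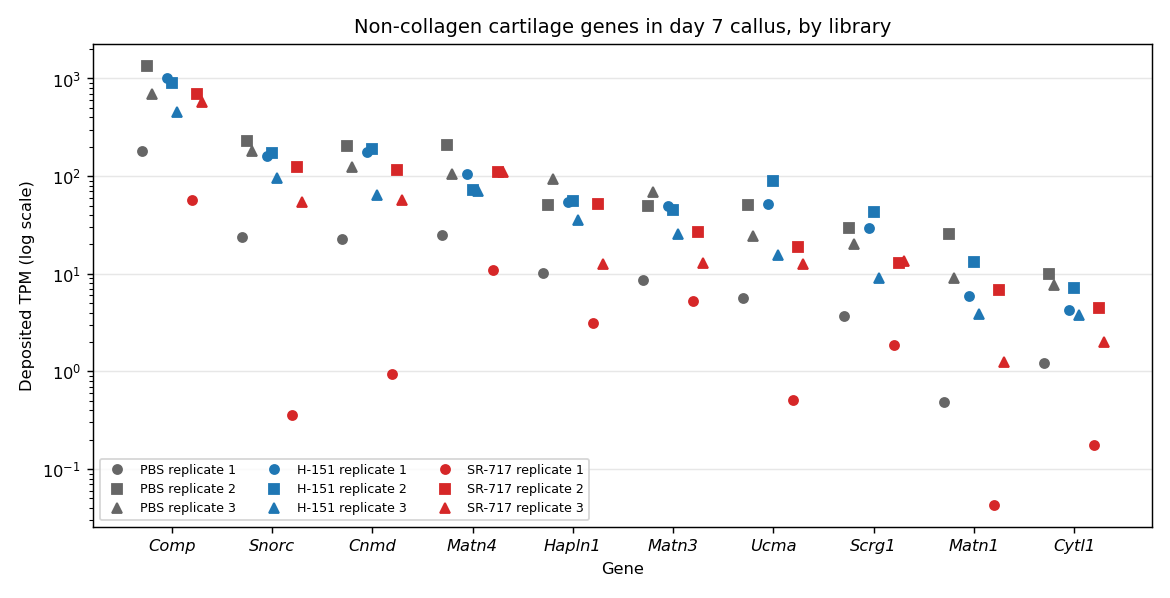
Deposited TPM of the 10 genes (log axis) in each of the 9 libraries, with colour for the group and marker shape for the replicate number, in order of mean level. For each gene the first SR-717 library is the lowest point and the first PBS library the next lowest, and the other 7 libraries of the 3 groups intermingle above them.

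Upstream sequence is shown for genes that moved together and yet kept different levels in the lowest library. RefSeq start sites on GRCm38.p6 were given for 7 of the 10 genes (8 promoters, 2 of them for Matn4), and the 250 bases before the start site were read. None was given for Comp, Snorc or Scrg1. Shown are Cnmd, Matn1 and Ucma, which nearly vanished from the first SR-717 library, and Matn3, which kept the largest share there. They were thus chosen by their level in 1 library, where Matn1 had 1 count and Ucma 5. The promoters lie at chr14:79662184-79662433 (minus strand) for Cnmd, at chr4:130944135-130944384 (plus strand) for Matn1, at chr2:4975872-4976121 (plus strand) for Ucma and at chr12:8947679-8947928 (plus strand) for Matn3. Each runs 5′ to 3′ towards its gene, and capitals mark the CCAAT box (CCAAT) and the GC box (GGGCGG), each searched on both strands.
Cnmd: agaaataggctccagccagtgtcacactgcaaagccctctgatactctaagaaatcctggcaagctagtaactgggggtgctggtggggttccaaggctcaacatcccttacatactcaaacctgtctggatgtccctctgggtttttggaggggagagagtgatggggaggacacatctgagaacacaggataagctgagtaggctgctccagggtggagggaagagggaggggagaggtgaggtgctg
Matn1: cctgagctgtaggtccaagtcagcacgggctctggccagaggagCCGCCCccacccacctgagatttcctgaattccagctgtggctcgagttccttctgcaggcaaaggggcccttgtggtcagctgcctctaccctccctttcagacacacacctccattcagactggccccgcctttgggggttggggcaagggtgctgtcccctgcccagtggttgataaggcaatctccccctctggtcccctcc
Ucma: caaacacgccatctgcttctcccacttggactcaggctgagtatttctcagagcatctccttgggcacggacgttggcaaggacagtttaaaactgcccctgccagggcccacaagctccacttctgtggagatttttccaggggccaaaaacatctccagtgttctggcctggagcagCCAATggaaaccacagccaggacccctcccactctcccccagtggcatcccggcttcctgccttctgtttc
Matn3: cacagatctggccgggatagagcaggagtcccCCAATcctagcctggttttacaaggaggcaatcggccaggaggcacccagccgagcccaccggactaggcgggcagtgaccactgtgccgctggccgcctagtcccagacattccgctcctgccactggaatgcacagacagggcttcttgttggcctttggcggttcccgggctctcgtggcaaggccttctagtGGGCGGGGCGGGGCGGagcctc
The 3 GC boxes of Matn3 overlap one another and begin 22, 17 and 12 bases before the start site, with a CCAAT box at 218 bases. Matn1 holds 1 GC box, at 206 bases, Ucma 1 CCAAT box, at 71 bases, and Cnmd holds neither. Of the 8 promoters, 4 hold a GC box and 3 a CCAAT box, against 32.7% and 33.8% of 32851 promoters of the same length. None of the 8 holds the letters ACAAAG or ACAATG, searched as half-sites of SOX factors (25.2% of all promoters), or TATAAA (12.4%). Of the genes not shown, Cytl1 (4.23% of its median in the other 7 libraries) holds 1 GC box and Hapln1 (7.11%) neither box. Matn4 (11.0%) holds 1 CCAAT box and, in its other promoter, 1 GC box. A match is a description of these letters in this window, and a link between the letters and the level was not tested.

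Comp (ENSMUSG00000031849, chr8:70373558-70382066, GRCm38) stood at 182, 1345 and 687 TPM in the PBS libraries, at 1017, 904 and 457 TPM in the H-151 libraries and at 56.9, 689 and 580 TPM in the SR-717 libraries. The SR-717 libraries other than the first lay inside the range of both other groups. The highest library was 23.6 times the lowest.

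The matrilins are adaptor proteins that form filaments between collagens and proteoglycans. Matn1 (ENSMUSG00000040533, chr4:130944385-130955475), the matrilin most restricted to cartilage, stood at 0.490, 25.6 and 9.00 TPM in PBS, at 5.89, 13.2 and 3.83 TPM in H-151 and at 0.0430, 6.87 and 1.25 TPM in SR-717. Its lowest value rests on 1 count. Matn3 (ENSMUSG00000020583, chr12:8947929-8972028), mutated in skeletal dysplasia as Comp is, stood at 8.64, 49.6 and 69.2 TPM in PBS, at 49.3, 44.7 and 25.3 TPM in H-151 and at 5.29, 26.9 and 13.0 TPM in SR-717. Its SR-717 values lay low as a group, but the highest of them exceeded the lowest H-151 value. Matn4 (ENSMUSG00000016995, chr2:164389393-164405160), found outside cartilage too, stood at 25.2, 208 and 106 TPM in PBS, at 106, 72.2 and 69.9 TPM in H-151 and at 10.9, 111 and 111 TPM in SR-717. Both SR-717 libraries other than the first thus held more Matn4 than any H-151 library. Matn4 overlaps Rbpjl on the opposite strand, and whether the counting used strand is not stated.

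Hapln1 (ENSMUSG00000021613, chr13:89539796-89611652) encodes the link protein that holds aggrecan to hyaluronan. It stood at 10.1, 50.7 and 93.1 TPM in PBS, at 54.1, 55.3 and 35.2 TPM in H-151 and at 3.12, 51.7 and 12.7 TPM in SR-717. In SR-717 the third library was close to the first PBS library. A processed pseudogene, Gm8546, lies within Hapln1 on the opposite strand.

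Cnmd and Snorc encode membrane proteins of chondrocytes. Cnmd (ENSMUSG00000022025, chr14:79637690-79662170) gives chondromodulin, whose released part inhibits the growth of blood vessels, and stood at 22.5, 203 and 124 TPM in PBS, at 177, 190 and 63.8 TPM in H-151 and at 0.938, 115 and 56.7 TPM in SR-717. Snorc (ENSMUSG00000026258, chr1:87470271-87475482) gives a small proteoglycan and stood at 23.9, 229 and 182 TPM in PBS, at 160, 172 and 95.8 TPM in H-151 and at 0.360, 124 and 54.3 TPM in SR-717. Snorc had the widest range of the 10 genes, with a highest library 636 times the lowest, and Matn3 the narrowest, at 13.1 times.

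The remaining genes encode small secreted proteins. Ucma (ENSMUSG00000026668, chr2:4976122-4985748), the Gla-rich protein of the upper growth plate, stood at 5.70, 50.3 and 24.4 TPM in PBS, at 51.8, 88.2 and 15.7 TPM in H-151 and at 0.508, 19.0 and 12.6 TPM in SR-717. Scrg1 (ENSMUSG00000031610, chr8:57455923-57477585), named for its rise in scrapie and made by chondrocytes, stood at 3.73, 29.5 and 20.2 TPM in PBS, at 29.8, 42.9 and 8.97 TPM in H-151 and at 1.84, 12.9 and 13.4 TPM in SR-717. For both genes the second H-151 library was the highest of the 9. Cytl1 (ENSMUSG00000062329, chr5:37735519-37739820), a cytokine-like protein of cartilage, stood at 1.23, 10.0 and 7.60 TPM in PBS, at 4.24, 7.11 and 3.79 TPM in H-151 and at 0.177, 4.42 and 2.02 TPM in SR-717. It was the least abundant and had 2 counts in the first SR-717 library.

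Over the 9 libraries these genes were among the most variable of the table. The SD of log2 CPM (counts scaled to the library total, prior count 2) over the 9 libraries ran from 1.23 for Matn3 to 2.56 for Snorc, against a median of 0.31 over 14294 genes. Between 0.0979% and 3.03% of those genes had a larger SD than a given one of the 10. Without the first SR-717 and the first PBS library, the SD (no prior count) ran from 0.45 for Comp to 1.35 for Matn1. Their rank among all genes without these libraries was not computed. All 10 genes were lower in the first SR-717 library and in the first PBS library than in any of the other 7 libraries. The same held for 9 and 8 of 10 chondrocyte collagens and factors in these 2 libraries in turn. It also held for 7 and 6 of 8 osteoblast markers and for 5 and 5 of 6 erythroid markers. In the same order, it held for 4 and 4 of 5 hypertrophic genes and for 11 and 10 of 17 other secreted cartilage proteins. It held for 6 and 3 of 9 family relatives, 4 and 0 of 7 osteoclast markers and 3 and 1 of 6 tendon markers. Of the 5 macrophage, 7 neutrophil, 6 muscle and 5 keratinocyte markers, 0 were this low in either library. The share over all genes was not computed, so these counts do not show that the low level was particular to cartilage genes.

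In the first SR-717 library the 10 genes were reduced to different degrees, along a range. Snorc reached 0.277% of its median CPM in the other 7 libraries (2 counts, exact 95% counting interval 0.0335% to 1.00%), Matn1 0.663% (1 count, 0.0168% to 3.69%) and Cnmd 0.796% (15 counts, 0.445% to 1.31%). Ucma reached 2.25% (5 counts, 0.731% to 5.26%) and Cytl1 4.23% (2 counts, 0.513% to 15.3%), whose interval covers the values of the 5 genes named next. Hapln1 (7.11%), Comp (9.10%), Scrg1 (9.78%), Matn4 (11.0%) and Matn3 (13.4%) followed, and the intervals of Comp (8.65% to 9.56%) and Cnmd do not overlap. In the first PBS library the genes were more alike, with a median of 19.7%. The lowest was Matn1 at 6.60% (9 counts, 3.02% to 12.5%) and the highest Cytl1 at 25.7% (11 counts, 12.8% to 46.1%). Intervals cover counting error only, and amplified reads are not independent molecules.

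**Figure D2:**
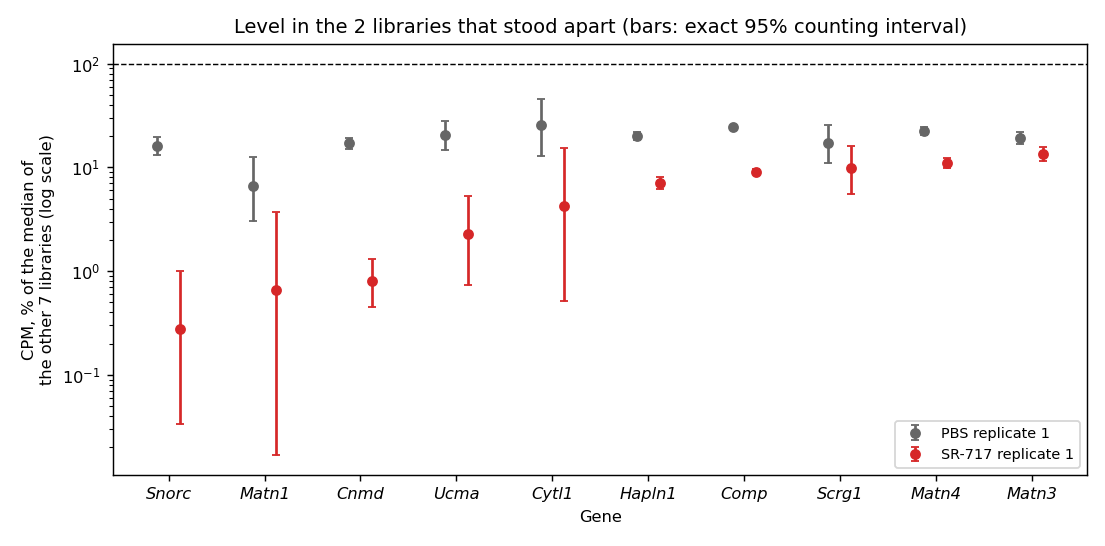
CPM of each gene in the first SR-717 library and the first PBS library as a percent of its median in the other 7 libraries (log axis; dashed line at 100%), with exact 95% counting intervals. In PBS the genes lie between 6.60% and 25.7%, and in SR-717 they spread from 0.277% for Snorc to 13.4% for Matn3.

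Set against Col2a1 in the same library, the genes behaved differently from one another. Cnmd stood at 1.35% to 2.16% of Col2a1 CPM in the 7 libraries, at 1.93% in the first PBS library and at 1.54% in the first SR-717 library, while Col2a1 itself varied 253-fold in TPM. The SD of the log2 ratio of Cnmd to Col2a1 was 0.19, and only 1 of 14293 genes had a smaller one. Without both libraries it was 0.20, and 2 genes had a smaller one. Snorc (SD 0.38), Ucma (0.72) and Matn1 (0.85) came next, with 4, 10 and 12 genes closer to Col2a1 over the 9 libraries. Their ratios in the first SR-717 library rest on 1 to 5 counts, and these SDs use the prior count of 2. With no prior count the SDs were 0.63 for Snorc, 0.63 for Ucma and 0.80 for Matn1. Snorc stood at 0.206% of Col2a1 in the first SR-717 library, below its 0.521% to 0.924% in the 7. Without both libraries 19 genes were closer to Col2a1 than Snorc (SD 0.34), 1123 closer than Ucma (0.60) and 8075 closer than Matn1 (0.77), so the likeness of Matn1 rested on the 2 low libraries. These are descriptions over libraries that share Col2a1 as the denominator.

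Comp, Matn4, Hapln1, Matn3 and Scrg1 fell less than Col2a1 in the first SR-717 library, where Col2a1 stood at 0.899% of its median in the other 7. Comp stood at 158% of Col2a1 there against a median of 16.0% in the 7 libraries (14.3% to 26.3%). Matn4 stood at 29.9% against 2.60%, Hapln1 at 21.3% against 2.57%, Matn3 at 19.1% against 1.01% and Scrg1 at 1.54% against 0.142%. Cytl1 stood at 0.206% against 0.0464%, on 2 counts. In the first PBS library the ratio of Comp was 24.9% and that of Matn3 1.59%, both inside the range of the 7 libraries. Comp was close to Col2a1 without both libraries (SD of the log2 ratio 0.29, 9 genes closer), and Matn4 was not (0.63, 2044 genes closer).

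**Figure D3:**
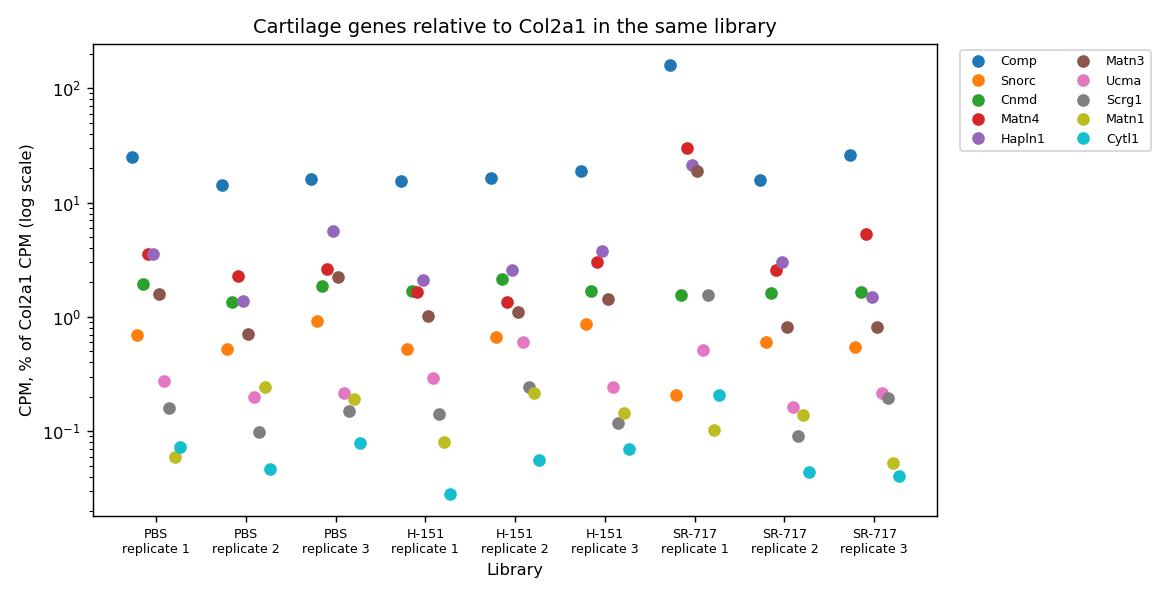
CPM of the 10 genes as a percent of Col2a1 CPM in the same library (log axis), for the 9 libraries by group; points of one library are set side by side. Cnmd stays between 1.35% and 2.16% in every library, while Comp, Matn4, Hapln1, Matn3, Scrg1 and Cytl1 lie higher in the first SR-717 library than in any other.

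Markers of other cells also differed in these libraries, and their part in the result was not tested. The summed TPM of the 10 genes was 283, 2201 and 1323 in PBS, 1655, 1590 and 779 in H-151 and 80.1, 1162 and 857 in SR-717. In the first SR-717 library, 7 of 7 neutrophil markers were above their median in the other 7 libraries (252% to 1842%). Their summed TPM was 34454 there, against 1485 to 11986 in the other 8 libraries. In the first PBS library the neutrophil markers stood at a median of 97.3% (68.6% to 417%). The 5 macrophage markers stood at a median of 190% in the first SR-717 library and 140% in the first PBS library. The median over 8 osteoblast markers was 33.8% in the first SR-717 library and 52.7% in the first PBS library, over 7 osteoclast markers 58.5% and 89.5%, over 6 muscle markers 51.8% and 68.2% and over 6 erythroid markers 10.3% and 5.48%. The 6 tendon markers went both ways in the first SR-717 library, with Tnmd at 34.2%, Fmod at 35.6% and Scx at 36.1% and with Kera at 108%, Thbs4 at 116% and Mkx at 289%. Of the 5 keratinocyte markers (summed TPM 3.98 to 22.1), Krt10 reached 1.34 to 20.8 TPM. In the first SR-717 library Krt5 and Krt14 stood at 28 and 35 counts, and Krt10 and Trp63 at 75.3% and 50.8% of their medians.

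**Figure D4:**
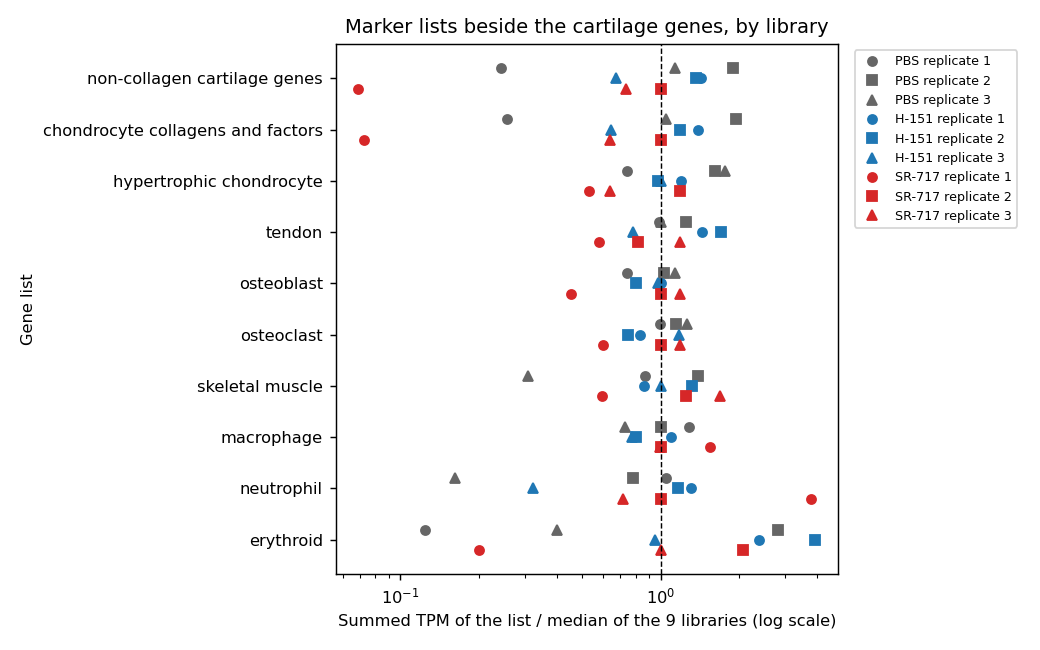
Summed TPM of each gene list divided by its median over the 9 libraries (log axis; dashed line at 1), by library. The non-collagen cartilage genes and the chondrocyte collagens are lowest in the first SR-717 and first PBS libraries, as are the osteoblast and erythroid markers. The neutrophil markers are highest in the first SR-717 library.

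SR-717 against H-151 compared the activator with the inhibitor. All 10 genes had a lower fitted level in SR-717, as did 46.6% of all genes, with log2 fold changes of -2.18 to -0.04 and a median of -1.21 beside 0.02 over all 14151 genes tested, but none passed the test (edgeR's quasi-likelihood test with Benjamini-Hochberg adjustment, adjusted p of 0.996 to 1). No gene of the table passed either (percent called 0%), and 146 genes (1.03%) had an unadjusted p under 0.05, none of them among the 10. Past the study's thresholds (unadjusted p under 0.05 and a fold of at least 1.5) were 0.389% of genes lower and 0.367% higher, and 0 of the 10 genes. Taken by replicate number, 6 of the 10 genes were lower in SR-717 in each of the 3 pairs, beside 9.98% of all genes. By pair, 10, 8 and 7 genes were lower, and the first pair holds the SR-717 library that stood apart. Same-numbered libraries of these groups correlated at only 0.34, 0.06 and 0.08 in their deviations from group means, so the pairing has little support here. The median over the 10 genes was -0.63 without the first SR-717 library and -2.25 without the second.

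Ucma had the lowest estimate, 4.97 ± 4.43 CPM in SR-717 against 22.4 ± 15.6 in H-151 (SD, n = 3; log2 fold change -2.18, SE 1.08, adjusted p = 0.996 in edgeR). Matn3, at 25.5 ± 18.6 CPM against 63.1 ± 14.9, had a log2 fold change of -1.32 (SE 0.55) and the smallest unadjusted p of the 10 in edgeR, 0.0523. The groups of Matn3 did not overlap in CPM, as for 2.51% of genes in that direction, but the highest SR-717 and the lowest H-151 value both round to 45.9 CPM and in TPM the groups overlapped. Matn4 stood apart with 98.8 ± 72.7 CPM against 101 ± 15.8, a log2 fold change of -0.04 and an interval of 2 SE on either side from -1.51 to 1.42. Without the first SR-717 library it was higher in SR-717, by 0.47. Scrg1 (-1.46), Matn1 (-1.40), Cnmd (-1.24), Snorc (-1.19), Cytl1 (-1.13), Hapln1 (-1.02) and Comp (-0.78) lay between, each with an interval that includes 0. DESeq2's Wald test, the tool family named by the study, put Matn3 and Ucma past the study's thresholds and called neither after adjustment.

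SR-717 against PBS shares the SR-717 libraries with the comparison above, and each pair of comparisons shares 1 group. The fitted log2 fold change was below 0 for 10 of 10 genes, from -1.98 for Matn1 to -0.46 for Matn4 with a median of -1.17, as it was for 47.8% of 14070 genes. No gene was called (0%) in edgeR, 97 (0.689%) had an unadjusted p under 0.05, and none of those was among the 10, whose smallest unadjusted p was 0.141, for Matn3. Past the study's thresholds were 0.249% of genes lower and 0.27% higher, and 0 of the 10. Matn1 stood at 3.06 ± 4.15 CPM in SR-717 and 12.1 ± 12.7 in PBS (SD, n = 3), so the SD of each group was larger than its mean.

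Both groups hold a library that stood apart, and both carry the number 1. Taken by number, SR-717 was below PBS for 10, 9 and 10 of the 10 genes in the 3 pairs. The exception was Hapln1 in the second pair (0.20 on the log2 scale). The genes moved together, so they are not replicates, and only 3 pairs of libraries were compared. In all 3 pairs 9 of the 10 genes were lower, as were 12.4% of all genes. In the fit blocked by replicate number, the log2 fold changes ran from -2.36 (Matn1, SE 0.38) to -0.58 (Matn4, SE 0.24) with a median of -1.49. Comp, Matn1, Matn3, Ucma, Scrg1 and Cytl1 were then lower past the study's thresholds, 6 of 10 beside 0.718% of all genes, and none of them was called (0 of 14070 genes at an adjusted p under 0.05 in edgeR). Without the first library of both groups, a choice made after the data were seen, Matn3 (SE 0.46, unadjusted p = 0.0243 in edgeR), Ucma (-1.13, SE 0.42), Scrg1 (-0.84, SE 0.27) and Cytl1 (-1.34, SE 0.50) were past the study's thresholds, 4 of 10 beside 0.254% of all genes, again with none called. The median over the 10 genes was -1.09 there. Without the second PBS library, Comp (0.046) and Matn4 (0.25) were higher in SR-717.

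H-151 against PBS gave no common direction. The log2 fold change was below 0 for 6 of 10 genes, as for 55.8% of 14085 genes, and the median was -0.07 beside -0.02 over all genes. In edgeR no gene was called (0%), 91 genes (0.646%) had an unadjusted p under 0.05, and the smallest unadjusted p of the 10 genes was 0.282, for Ucma. None of the 10 was past the study's thresholds, beside 0.263% of genes higher and 0.163% lower. Ucma stood at 22.4 ± 15.6 CPM in H-151 and 11.6 ± 9.34 in PBS (SD, n = 3), a log2 fold change of 0.95 with an interval of 2 SE on either side from -0.67 to 2.57. Snorc was nearest to 0 (-0.02, interval -1.39 to 1.35), so a change of more than 2-fold in either direction lies within its interval. The other log2 fold changes ran from -0.59 (Matn1, SE 1.06) to 0.59 (Scrg1, SE 0.75).

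The pairs of the same number disagreed in direction. In the first pair 0 of 10 genes were lower in H-151, in the second 7 and in the third 10, and no gene was lower in all 3, beside 11.5% of all genes. Matn4 ran from 1.96 in the first pair to -1.46 in the second on the log2 scale. Blocked by number, the fit gave a median of 0.36, and 2 of the 10 genes were below 0. Without the first PBS library the median was -0.55, and without the second it was 0.52.

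**Figure D5:**
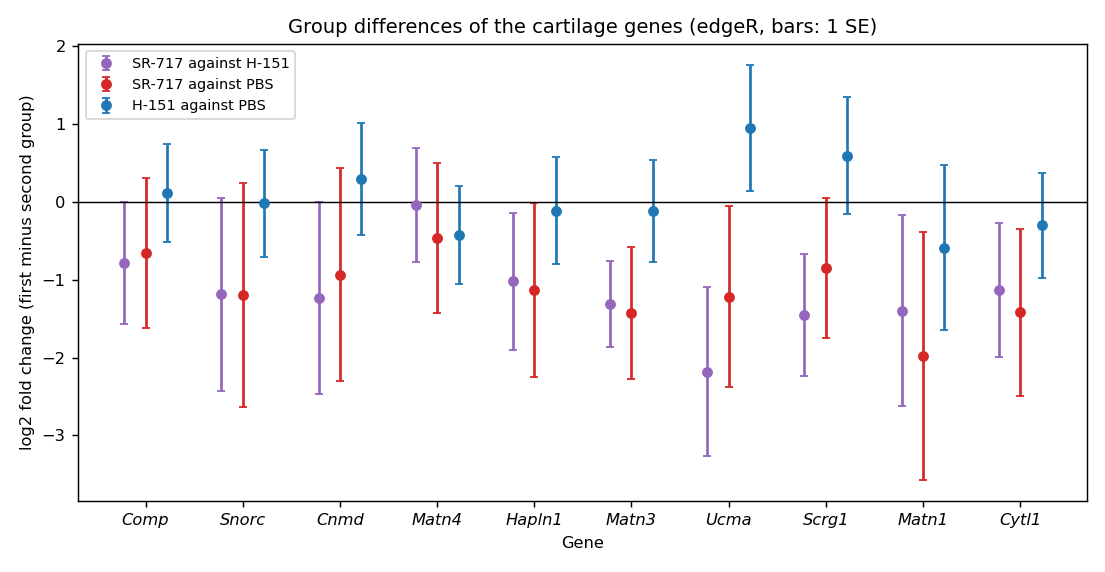
Fitted log2 fold change of each gene (edgeR, first minus second group) in the 3 comparisons, with bars of 1 SE; the line at 0 means no difference. Both comparisons of SR-717 lie below 0 for all 10 genes, between -2.18 and -0.04, and H-151 against PBS lies on both sides of 0.

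Family relatives of these genes varied less, with an SD of log2 CPM over the 9 libraries of 0.34 to 0.61 among the 8 tested. The list held Matn2, 3 other link proteins, Thbs1 to Thbs4 and Tnmd. In the first SR-717 library Thbs2 stood at 69.5%, Thbs3 at 54.1%, Thbs4 at 116% and Thbs1 at 252% of their median in the other 7 libraries, where Comp, of the same thrombospondin family, stood at 9.10%. Matn2 stood at 51.3% there, and Tnmd, the tendon relative of Cnmd, at 34.2%. No relative was called in any comparison, and Tnmd was past the study's thresholds in SR-717 against H-151 (68.0 ± 28.5 against 123 ± 21.8 CPM, n = 3, log2 fold change -0.86, SE 0.34, unadjusted p = 0.0431 and adjusted p = 0.996 in edgeR).

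Other secreted cartilage proteins formed a list of 17 genes, with Acan, the main proteoglycan core protein, at 9.21% of its median in the first SR-717 library. Chad and Chadl, leucine-rich proteins of cartilage, stood at 13.6% and 9.34%, and Mia, a small secreted cartilage protein, at 1.31%. Chi3l1, a chitinase-like protein made by several cell types, stood at 1160% there. Others fell less or rose in that library, such as Prelp at 51.2%, Cilp at 83.3%, Vwa1 at 111% and Prg4 at 293%. Over the 17 genes the median was 35.7% (0% to 1160%), and 11 lay below all of the other 7 libraries. Of the 15 tested genes 12 had a log2 fold change below 0 in SR-717 against H-151 (median -0.60) and 13 in SR-717 against PBS (median -0.36), and 5 of 16 in H-151 against PBS. None was called or past the study's thresholds in any of the 3 comparisons.

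Among the chondrocyte collagens and factors, 10 of 10 had a log2 fold change below 0 in both comparisons of SR-717, with medians of -0.91 and -0.74, and none was called. Sox5, a partner of Sox9, was past the study's thresholds in SR-717 against H-151 (-1.65, SE 0.38) and in H-151 against PBS (1.03, SE 0.37). Its level in the third H-151 library was 8.64 TPM, against 0.527 to 1.92 TPM in the other 8. The 5 hypertrophic genes were spread widely in the first SR-717 library, with Col10a1 at 0.552%, Ihh at 1.28%, Panx3 at 21.96% and Pth1r at 27.3% of their medians and Mmp13, a collagenase that osteoblasts also make, at 218%.

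The genes whose log2 CPM followed the mean of the 10 most closely over the 9 libraries were Col9a1 (Pearson r 0.997), Ihh (0.995), Clec3a (0.995), Susd5 (0.994), Scube1 (0.992), Ncmap (0.992), Wscd2 (0.992), Mia (0.992), Eps8l2 (0.989) and Col9a2 (0.989), among 14284 genes. Without both libraries that stood apart their r was 0.917 to 0.980 over 7 libraries. Within the 10, each gene's r with the mean of the others was 0.899 (Matn4) to 0.980 (Cytl1) over 9 libraries. Over 7 libraries it was 0.19 for Matn4 and 0.73 to 0.97 for the others, so Matn4 followed the others mainly through the 2 libraries. These correlations share libraries and depth and are given as descriptions.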

How the data were processed

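Callus RNA (poly(A) selected, strand-specific, paired-end) was sequenced from 9 libraries in 3 groups. The authors deposited expected counts per gene and TPM, the latter scaled by them for gene length. The submitters' processing notes name mm10 as the build, and the aligner, counter and annotation are not given in the sources used here. Libraries were grouped by their labels. The 10 genes and the lists set beside them were chosen with earlier results of these data known. Genes named from the lists were the most abundant of each, those past a threshold and the 10 closest in pattern. Other list genes named were chosen after their values were seen.

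Expected counts were rounded (8.91% were not whole) and the quasi-likelihood test of edgeR 4.0.16 was run in R 4.3.3 (genes kept at a count of 10 and a total of 15 by filterByExpr, TMM, glmQLFit and glmQLFTest, 2-sided, no covariates) on the 6 libraries of each comparison, with Benjamini-Hochberg adjustment over all genes tested. CPM used TMM library sizes. A SE was derived from the F statistic. The script was tested on simulated data. Positions are from GENCODE M21 (GRCm38), promoters from RefSeq (GRCm38.p6).

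The labels do not say what shared replicate numbers mean. Deviations from group means of same-numbered libraries correlated at 0.65, 0.34 and 0.14 for SR-717 and PBS and at 0.31, 0.49 and 0.50 for H-151 and PBS, all above 0.1, so blocked values are printed for those comparisons. Alternatives were DESeq2 1.42.0, its size factors, 2 count filters, a fit of all 9 libraries, the block and leaving out each library. No exact permutation test was used, since 3 against 3 cannot give a p below 0.1. Depth limits genes with few counts, above all Matn1, Snorc and Cytl1 in the lowest library.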

Additional observations from a re-analysis of the deposited data

How the results depend on the processing

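No gene among the 10 was called at an adjusted p under 0.05 in any comparison under any alternative run, and 345 of 368 alternative log2 fold changes kept their direction. DESeq2's Wald test called 1 gene of the table in SR-717 against H-151, which is not one of the 10, where edgeR called 0 (146 at an unadjusted p under 0.05, 281 in DESeq2). It put 147 genes higher and 62 lower past the study's thresholds, against 52 and 55 in edgeR. Over the alternatives without a block or a left-out library, these counts ran from 37 to 147 higher and 24 to 100 lower in SR-717 against H-151, from 20 to 141 and 17 to 59 in SR-717 against PBS and from 17 to 89 and 11 to 39 in H-151 against PBS. Same-numbered libraries of SR-717 and H-151 correlated at 0.34, 0.06 and 0.08, and 8 of 9 libraries correlated best with a library of their own number. With the replicate block, 1 of the 10 genes (Matn3) was past the study's thresholds in SR-717 against H-151, at 173 genes with an unadjusted p under 0.05. The block changed the sign in H-151 against PBS for Matn1 (0.028), Matn3 (0.24), Hapln1 (0.36) and Snorc (0.35), and it changed no call.

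Leaving out 1 library at a time moved the log2 fold change across 0 for several genes. In SR-717 against H-151 Matn4 ran from -0.43 to 0.47. In SR-717 against PBS Comp ran from -1.18 to 0.046 and Matn4 from -0.94 to 0.25. In H-151 against PBS Comp ran from -0.34 to 0.83, Matn1 from -1.23 to 0.63, Matn3 from -0.59 to 0.50, Matn4 from -0.90 to 0.29, Hapln1 from -0.59 to 0.73, Cnmd from -0.19 to 0.90, Snorc from -0.51 to 0.42 and Cytl1 from -0.78 to 0.15. The cause was not tested. Where a group was left with 2 libraries, edgeR pooled the spread over both groups, as in every fit here. Counts past the study's thresholds over all genes then ran from 19 to 544 higher and 36 to 170 lower in SR-717 against H-151, from 60 to 261 and 24 to 108 in SR-717 against PBS and from 30 to 482 and 13 to 216 in H-151 against PBS. Among the 10 genes, Matn3 and Ucma were past them in SR-717 against H-151 without the first SR-717 library and Matn1, Matn3 and Hapln1 without the second, Matn3 in SR-717 against PBS and Matn4 in H-151 against PBS without the first PBS library. Cytl1 had no value under a mean count of at least 50 in both comparisons of SR-717.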
